A study of Mus musculus with 4 samples.

Results

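Loci of the V(D)J recombination machinery were examined for PHF6, a chromatin-associated PHD-finger protein, and for acetylation and trimethylation of lysine 27 of histone H3. They comprise 7 of 16412 protein-coding genes whose position could be set. The genes were *Rag1*, *Rag2*, *Dntt*, *Dclre1c*, *Lig4*, *Xrcc4* and *Prkdc*, chosen by name for their role in this process. The cells were a mouse pre-B acute lymphoblastic leukemia culture of strain C57BL/6J, transformed by overexpressed BCR-ABL1, a fusion tyrosine kinase, and null for p19, a tumour suppressor. Every library shared this genotype. Chromatin immunoprecipitation and sequencing (ChIP-seq) captured crosslinked chromatin with an antibody against PHF6, against acetylated lysine 27 (H3K27ac, found at active promoters and enhancers) or against trimethylated lysine 27 (H3K27me3, deposited by Polycomb repressive complex 2). Each antibody had 1 library, so no value has a replicate error and no test between antibodies was made. An input library of the same cells, without antibody, was not analysed here, and the labels describe no untransformed or PHF6-deficient cells. The sources used here do not state whether the culture was a single clone.

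V(D)J recombination assembles the variable regions of immunoglobulin and T-cell receptor genes in developing lymphocytes. RAG1 and RAG2 together form the recombinase that cuts DNA at recombination signal sequences and leaves hairpin-sealed coding ends. Artemis, the product of *Dclre1c*, opens the hairpins once it is activated by the kinase DNA-PKcs, the product of *Prkdc*. Terminal deoxynucleotidyl transferase, the product of *Dntt*, adds untemplated nucleotides to the opened ends, and DNA ligase IV (*Lig4*) joins them with its partner XRCC4. *Rag1*, *Rag2* and *Dntt* are expressed almost only in developing lymphocytes, whereas the other 4 genes serve non-homologous end joining in most cell types. *Rag1* and *Rag2* are neighbours transcribed towards each other and share distal enhancers, among them Erag upstream of *Rag2*.

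The peak lists are in mouse build mm9 and the gene positions at hand in GRCm38, so each gene was moved to mm9 by the local offset at which H3K27ac summits of height 200 or more best matched annotated transcription start sites. Between 5 and 32 start sites within 3 Mb of a member matched a summit, at a median distance of 96 to 283 bp, and positions relative to a start site carry an error of about that size. Peaks were counted where they overlapped the gene body plus 30 kb each side. A peak was called at a start site when it lay within 1 kb of it. For *Prkdc*, which is not in the promoter table, the end of the gene next to *Mcm4* was taken as its start. Summit height is the authors' whole-number pileup of fragments at the highest point of a peak, and its intervals are 95% exact Poisson intervals that cover counting error only. The greatest height was 400 in each of the 3 lists. Whether this is a ceiling that compresses tall heights was not tested, so differences and intervals among tall H3K27ac heights are approximate. Read totals are unknown, so heights were compared within 1 list and not between antibodies. A gene without a peak is a gene where no peak passed the authors' threshold, which does not show that the protein or mark was absent.

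The 7 genes fell into 3 states at their start sites. *Lig4*, *Xrcc4* and *Prkdc* had PHF6 together with H3K27ac at heights of 269 to 319. *Dclre1c* had H3K27ac at a lower height of 102 without PHF6, and *Rag1*, *Rag2* and *Dntt* had neither. PHF6 was thus at 3 of 7 start sites (42.9%, 95% exact binomial interval 9.90 to 81.6), beside 68.0% of all protein-coding genes. H3K27ac was at 4 of 7 (57.1%, 18.4 to 90.1), beside 62.3% of all genes, and PHF6 and H3K27ac together were at 3, beside 56.5%. None of the 3 marks was at 3 of 7 start sites, beside 26.0% of all genes. H3K27me3 was at 0 of 7 (upper limit 41.0%), beside 3.53% of all genes. With 7 genes, each of these intervals holds the value of all genes, so a difference from the genome was not detectable with so few members.

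The 250 bases before the start site are shown for the 6 members in the promoter table, because the 3 states run in the same order as their content of CpG dinucleotides. The sequences are from RefSeq on GRCm38.p6, written 5′ to 3′ on the strand of the gene, with each CpG in capitals. They lie at chr2:101649533-101649782 (minus strand, *Rag1*), chr2:101624462-101624711 (plus, *Rag2*), chr19:41029025-41029274 (plus, *Dntt*), chr2:3423881-3424130 (plus, *Dclre1c*), chr8:9977681-9977930 (minus, *Lig4*) and chr13:90089609-90089858 (minus, *Xrcc4*).
Rag1: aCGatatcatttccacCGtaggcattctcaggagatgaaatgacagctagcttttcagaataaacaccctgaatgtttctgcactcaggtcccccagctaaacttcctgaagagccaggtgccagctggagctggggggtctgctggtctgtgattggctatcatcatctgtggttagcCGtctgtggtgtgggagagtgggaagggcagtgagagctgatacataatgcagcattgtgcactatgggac
Rag2: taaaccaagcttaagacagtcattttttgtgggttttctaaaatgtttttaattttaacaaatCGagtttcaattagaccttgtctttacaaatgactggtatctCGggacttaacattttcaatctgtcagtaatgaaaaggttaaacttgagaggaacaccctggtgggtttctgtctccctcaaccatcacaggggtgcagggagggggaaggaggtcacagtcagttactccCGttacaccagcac
Dntt: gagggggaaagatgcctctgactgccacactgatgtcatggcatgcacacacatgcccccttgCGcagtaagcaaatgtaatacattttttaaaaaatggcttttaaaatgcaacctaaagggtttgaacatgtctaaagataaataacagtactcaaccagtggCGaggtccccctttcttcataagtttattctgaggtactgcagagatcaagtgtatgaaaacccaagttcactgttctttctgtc
Dclre1c: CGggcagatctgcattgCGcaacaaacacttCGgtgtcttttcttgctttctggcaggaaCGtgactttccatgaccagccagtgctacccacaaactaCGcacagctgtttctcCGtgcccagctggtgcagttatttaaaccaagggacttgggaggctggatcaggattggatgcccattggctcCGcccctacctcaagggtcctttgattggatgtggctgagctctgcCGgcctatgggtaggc
Lig4: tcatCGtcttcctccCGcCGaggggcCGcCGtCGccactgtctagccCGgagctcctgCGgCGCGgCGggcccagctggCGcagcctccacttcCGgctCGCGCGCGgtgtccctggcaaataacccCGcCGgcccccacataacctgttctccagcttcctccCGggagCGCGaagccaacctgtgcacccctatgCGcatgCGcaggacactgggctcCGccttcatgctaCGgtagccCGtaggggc
Xrcc4: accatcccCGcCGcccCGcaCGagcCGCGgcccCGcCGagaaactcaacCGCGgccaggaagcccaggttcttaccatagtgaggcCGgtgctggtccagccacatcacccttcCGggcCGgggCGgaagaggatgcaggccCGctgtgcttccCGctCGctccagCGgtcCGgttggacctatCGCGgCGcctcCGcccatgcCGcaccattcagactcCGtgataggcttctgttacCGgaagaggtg

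These stretches held 3 CpG at *Rag1*, 3 at *Rag2*, 2 at *Dntt*, 8 at *Dclre1c*, 27 at *Lig4* and 26 at *Xrcc4*. The median over 16411 protein-coding genes was 10. *Dntt*, *Rag1* and *Rag2* stood at percentiles 18.8, 25.1 and 25.1 of all genes, *Dclre1c* at 43.6, and *Xrcc4* and *Lig4* at 88.6 and 89.9. G and C made up 50.8% of the *Rag1* stretch, 41.2% at *Rag2*, 41.6% at *Dntt*, 54.8% at *Dclre1c*, 70.0% at *Lig4* and 68.0% at *Xrcc4*. The 3 lymphoid genes thus had few CpG, the widely used ligation genes had CpG-rich starts, and *Dclre1c* lay between.

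Read against all genes, the start-site calls of the 6 members were those of the majority of their CpG class, apart from PHF6 at *Dclre1c*. Among 4583 genes with 0 to 3 CpG in this stretch, the class of *Rag1*, *Rag2* and *Dntt*, PHF6 was at 23.7% and H3K27ac at 16.0% of start sites. Among 3252 genes with 4 to 9 CpG, the class of *Dclre1c*, the shares were 65.4% for PHF6 and 53.1% for H3K27ac. Among 3918 genes with 20 or more CpG, the class of *Lig4* and *Xrcc4*, they were 96.8% and 92.9%. The class of 10 to 19 CpG, with 4658 genes and no member, had 89.1% and 88.4%. The plot of shares by CpG count shows this rise with the members named above their class.

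**Figure D1:**
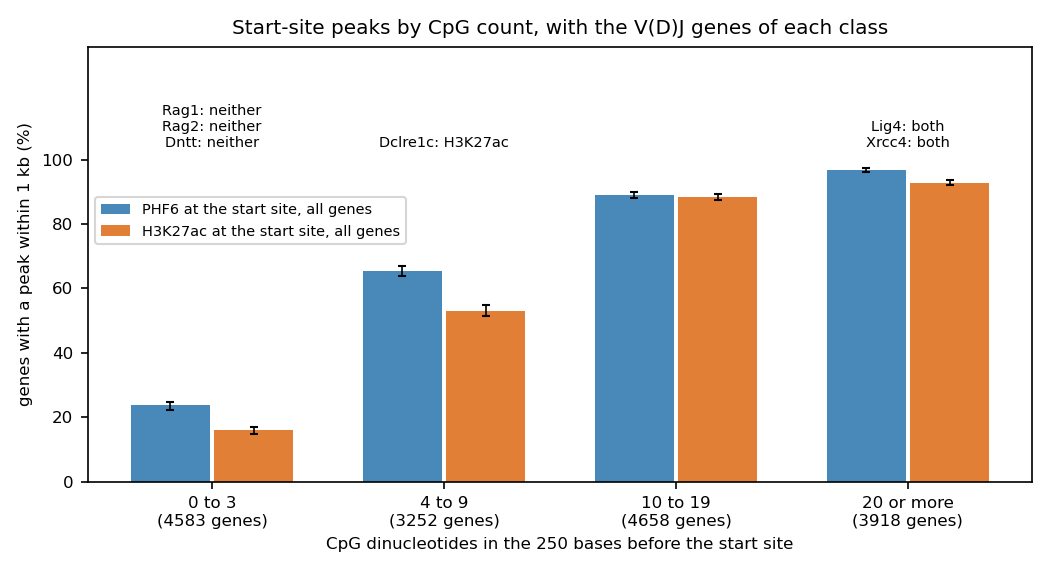
Share of protein-coding genes with a PHF6 or H3K27ac peak within 1 kb of the start site (y axis, percent) by the number of CpG in the 250 bases before it (x axis, 4 classes). Error bars are 95% exact binomial intervals for counting error, and the text above each class names its V(D)J genes and what was at their start sites, with shares that rise from 23.7% to 96.8% for PHF6.

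Other short motifs were searched in the same stretches on both strands, and a match is only a description. CCAAT, the core of the NF-Y site, was found 3 times at *Dclre1c* and 1 time at *Rag1*, and is in 36.5% of all promoter stretches. CCGGAAG, an ETS-type site, was found 2 times at *Xrcc4* and 1 time at *Lig4*, and is in 9.42% of all. CAGGTG, an E-box of the type bound by E2A, occurred 1 time at *Rag1* and is in 16.6% of all. TATAAA and the E-box CACGTG, in 12.4% and 6.81% of all, were in none of the 6. None of these motifs contains another.

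The recombinase genes *Rag1* and *Rag2* lay in a stretch with almost no called peaks. Neither gene body held a peak of any list, and no peak lay between their start sites. The start of *Iftap*, which lies within *Rag2* on the other strand, had none either. In the *Rag2* window of 67.8 kb there were 0 PHF6 and 0 H3K27ac peaks, and in the *Rag1* window of 71.3 kb there was 1 of each. That pair sat at the edge of the window, at the start of *Traf6*, a signalling adaptor gene beyond *Rag1*. The PHF6 peak there (chromosome 2, 101518321 to 101519531 in mm9) had a height of 34 (interval 23.5 to 47.5) and its summit lay 29.5 kb upstream of the *Rag1* start. The H3K27ac peak (101518072 to 101519883) had a height of 270 (239 to 304). Within a window of 10 kb each side, *Rag1* had no peak of any list.

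No H3K27ac or PHF6 peak was called in the 30 kb upstream of *Rag2*, the side on which Erag lies. Going away from *Rag1* on that side, the nearest PHF6 peak (101391288 to 101392034) lay 73.1 kb upstream of the *Rag2* start with a height of 22, inside no protein-coding gene, and without H3K27ac. The nearest H3K27ac peak upstream was 143 kb away and had a height of 15. The stretch around both genes without a PHF6 peak was 126 kb long, and 6.23% of the 77711 gaps between neighbouring PHF6 peaks were at least as long. The stretch without an H3K27ac peak was 196 kb long, and 8.58% of 32364 such gaps were as long. Long gaps of this kind cover more of the genome than their share of gaps, so these percentages rank the stretch among gaps and are not the chance that a gene lies in one.

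The only H3K27me3 peak in any of the 7 windows was near *Rag2*. It spanned 101436046 to 101437133 on chromosome 2, had a height of 11 (interval up to 19.7) and lay 28.2 kb upstream of the *Rag2* start, inside the gene body of *Iftap*. That height stood at percentile 5.24 of the H3K27me3 list. H3K27me3 was thus called in the window of 1 of 7 members, beside 30.5% of all genes. Neither *Rag* start thus carried a called peak of the activating or the repressive modification.

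*Dntt*, the gene of the nucleotide-adding transferase, was acetylated along its locus but not within 1 kb of its start site, and the nearest PHF6 summit lay 23.8 kb inside the gene. Its window of 90.3 kb on chromosome 19 held 6 H3K27ac peaks, the most of any member, and 5 PHF6 peaks. The H3K27ac peak nearest to the start (41105178 to 41106237) had its summit 1.86 kb inside the gene and a height of 33 (interval up to 46.3). A second peak inside the gene, 8.83 kb from the start, had a height of 30. Peaks 6.56 kb and 13.1 kb upstream, in no protein-coding gene, had heights of 20 and 37. These 4 heights lay between percentiles 23.6 and 51.4 of the H3K27ac list, and their counting intervals overlapped. With a start-site window of 2 kb in place of 1 kb, *Dntt* counted as acetylated.

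The tallest and widest H3K27ac peak of the *Dntt* window belonged to a neighbour. It spanned 41065470 to 41074588, 9.12 kb, with its summit 33.4 kb upstream of *Dntt* and a height of 106 (interval up to 128), and it covered the start of *Blnk*, the B-cell linker adaptor of pre-B receptor signalling. Its width stood at percentile 99.7 of the H3K27ac list, where 102 of 32388 peaks were as wide. No PHF6 peak overlapped it or any other H3K27ac peak within 30 kb of the *Dntt* start. The 5 PHF6 peaks of the window lay on the other side, from 23.8 kb to 59.3 kb past the *Dntt* start, the nearest inside *Dntt* and the farthest inside *Tll2*, at heights of 18 to 25. Only the last of these overlapped H3K27ac, at a peak of height 26 in *Tll2*.

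*Dclre1c*, the gene of the hairpin-opening nuclease Artemis, was the member with an acetylated start and no PHF6. The H3K27ac peak at its start (chromosome 2, 3340249 to 3342223) had a height of 102 (interval 83.2 to 124) and its summit lay 20 bp from the moved start site. A start of *Meig1*, on the other strand, was within 1 kb of the same peak, so the peak cannot be assigned to 1 of these genes. That height stood at percentile 26.2 among the 10221 genes with H3K27ac at the start site. The nearest PHF6 summit was 50.4 kb away, at the far end of the gene. Of all genes with H3K27ac at the start site, 9.28% lacked PHF6 there. Among the 1950 of them with heights between 51 and 204, a range around that of *Dclre1c*, 26.0% lacked it. Acetylated starts without PHF6 were more frequent at such heights than among acetylated starts in general.

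At its far end *Dclre1c* overlaps *Suv39h2*, which encodes a histone methyltransferase of heterochromatin and starts just beyond it on the other strand. This start carried H3K27ac (3391227 to 3393153) with a height of 316 and PHF6 (3391384 to 3392997) with a height of 35 (interval up to 48.7). Both starts of the overlapping pair were thus acetylated, and PHF6 was called at 1 of them. A low H3K27ac peak of height 18 lay 5.27 kb upstream of *Dclre1c* within *Meig1*, near another of its starts, and a PHF6 peak of height 21 without H3K27ac lay 63.2 kb downstream of its start.

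The end-joining genes *Xrcc4*, *Lig4* and *Prkdc* had PHF6 and H3K27ac at their starts. *Xrcc4* had the tallest of each. Its PHF6 peak (chromosome 13, 90228730 to 90229853) had a height of 34 (interval 23.5 to 47.5) and its H3K27ac peak (90227941 to 90230189) a height of 319 (285 to 356). The 2 summits lay 332 and 366 bp upstream of the moved start site. *Lig4* followed with a PHF6 height of 28 (18.6 to 40.5) at chromosome 8, 9977546 to 9978553, and an H3K27ac height of 279 (247 to 314) at 9975585 to 9978909. *Prkdc* had a PHF6 height of 27 (17.8 to 39.3) at chromosome 16, 15636486 to 15638407, and an H3K27ac height of 269 (238 to 303) at 15636367 to 15638706.

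With peaks limited to a score of 100 or more (the authors' score grows with the peak caller's certainty and starts at 60 in these lists), the PHF6 peak at the *Lig4* start was lost and 2 members kept PHF6. The PHF6 intervals of these 3 genes overlapped, and so did their H3K27ac intervals, so neither order held beyond counting error. The H3K27ac height of *Dclre1c* lay below all 3, with an interval that ended at 124 against a lowest bound of 238. Among genes with a peak at the start site, the PHF6 heights of *Prkdc*, *Lig4* and *Xrcc4* stood at percentiles 27.5, 31.3 and 55.2. Their H3K27ac heights stood at 54.8, 58.2 and 75.8. The plot of start-site heights sets them beside the median of all such genes, 33 for PHF6 and 252 for H3K27ac. The PHF6 heights of *Lig4* and *Prkdc* were thus below the median of start sites with a PHF6 peak and that of *Xrcc4* just above it. The counting interval of each holds that median, so none differed from it beyond counting error.

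**Figure D2:**
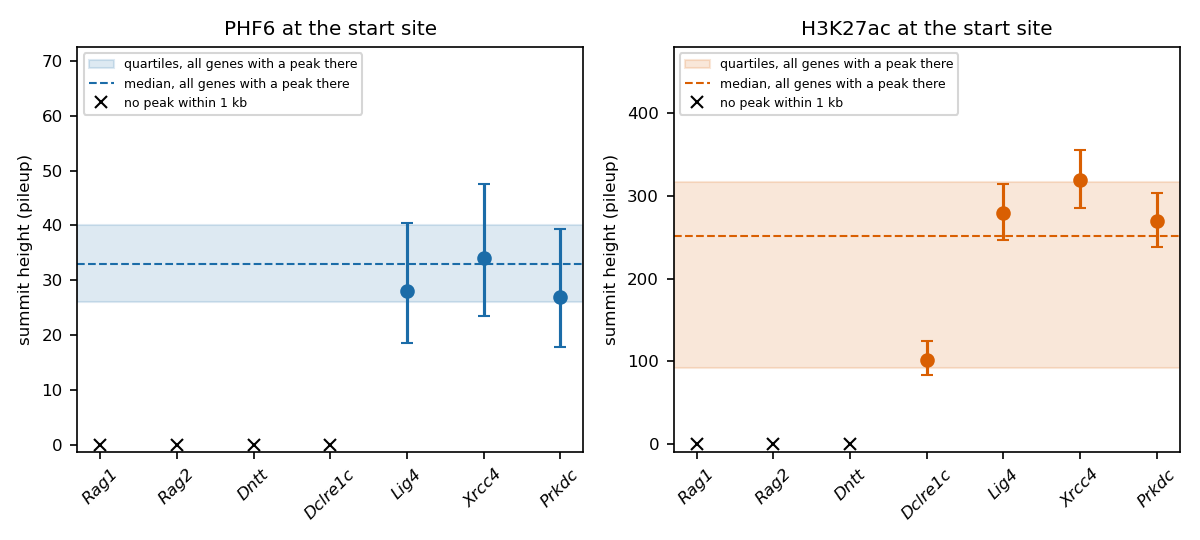
Summit height (y axis, pileup) of the tallest PHF6 peak (left) and H3K27ac peak (right) within 1 kb of the start site of each member, with 95% exact Poisson intervals, and crosses where no peak was called. The dashed line and band give the median and quartiles over all protein-coding genes with such a peak, and *Dclre1c* at 102 lies below the other 3 acetylated members.

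Each of these 3 genes starts head to head with a neighbour, and the peaks cannot be assigned to either gene of a pair. *Lig4* and *Abhd13*, a hydrolase gene, have starts 37 bp apart. *Xrcc4* and *Tmem167* have starts 59 bp apart. *Prkdc* and *Mcm4*, which encodes a subunit of the replicative helicase, have gene ends 44 bp apart. The other 4 members had no such partner within 1 kb upstream. Among 1411 genes with a divergent partner this close, PHF6 was at 90.7% and H3K27ac at 96.6% of start sites. Among the 15001 genes without such a partner the shares were 65.8% and 59.0%. *Lig4* and *Xrcc4* are in the first count, and *Prkdc*, whose partner is not in the promoter table, is in the second. The 3 head-to-head members thus had what most divergent starts had.

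*Lig4* also had a second PHF6 peak under the same H3K27ac peak, which was 3.33 kb wide. It spanned 9975964 to 9976710 and had a height of 26. Its summit lay 1.20 kb inside the gene and its nearer edge 788 bp from the *Lig4* start. No other H3K27ac peak was called in the 67.7 kb window of *Lig4*, nor within 100 kb of the gene. A PHF6 peak of height 23 without H3K27ac lay 29.9 kb upstream at the start of *Tnfsf13b*, the gene of the B-cell survival factor BAFF.

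The long genes *Xrcc4* and *Prkdc*, with bodies of 241 and 205 kb, held few peaks beyond their starts. *Xrcc4* had 1 further H3K27ac peak, 31.2 kb into the gene with a height of 26, and 1 further PHF6 peak, 46.1 kb into it with a height of 19. These did not overlap. Inside *Prkdc*, PHF6 peaks 48.7 and 114 kb from the start had heights of 21 and 23 and no H3K27ac. Beyond the end of *Prkdc*, PHF6 of height 20 lay 206 kb from the start. PHF6 of height 32 lay 225 kb from it within *Mzt2*, where an H3K27ac peak of height 227 overlapped it. Upstream, within the window, 1 PHF6 peak of height 17 lay 15.6 kb from the *Prkdc* start.

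**Figure D3:**
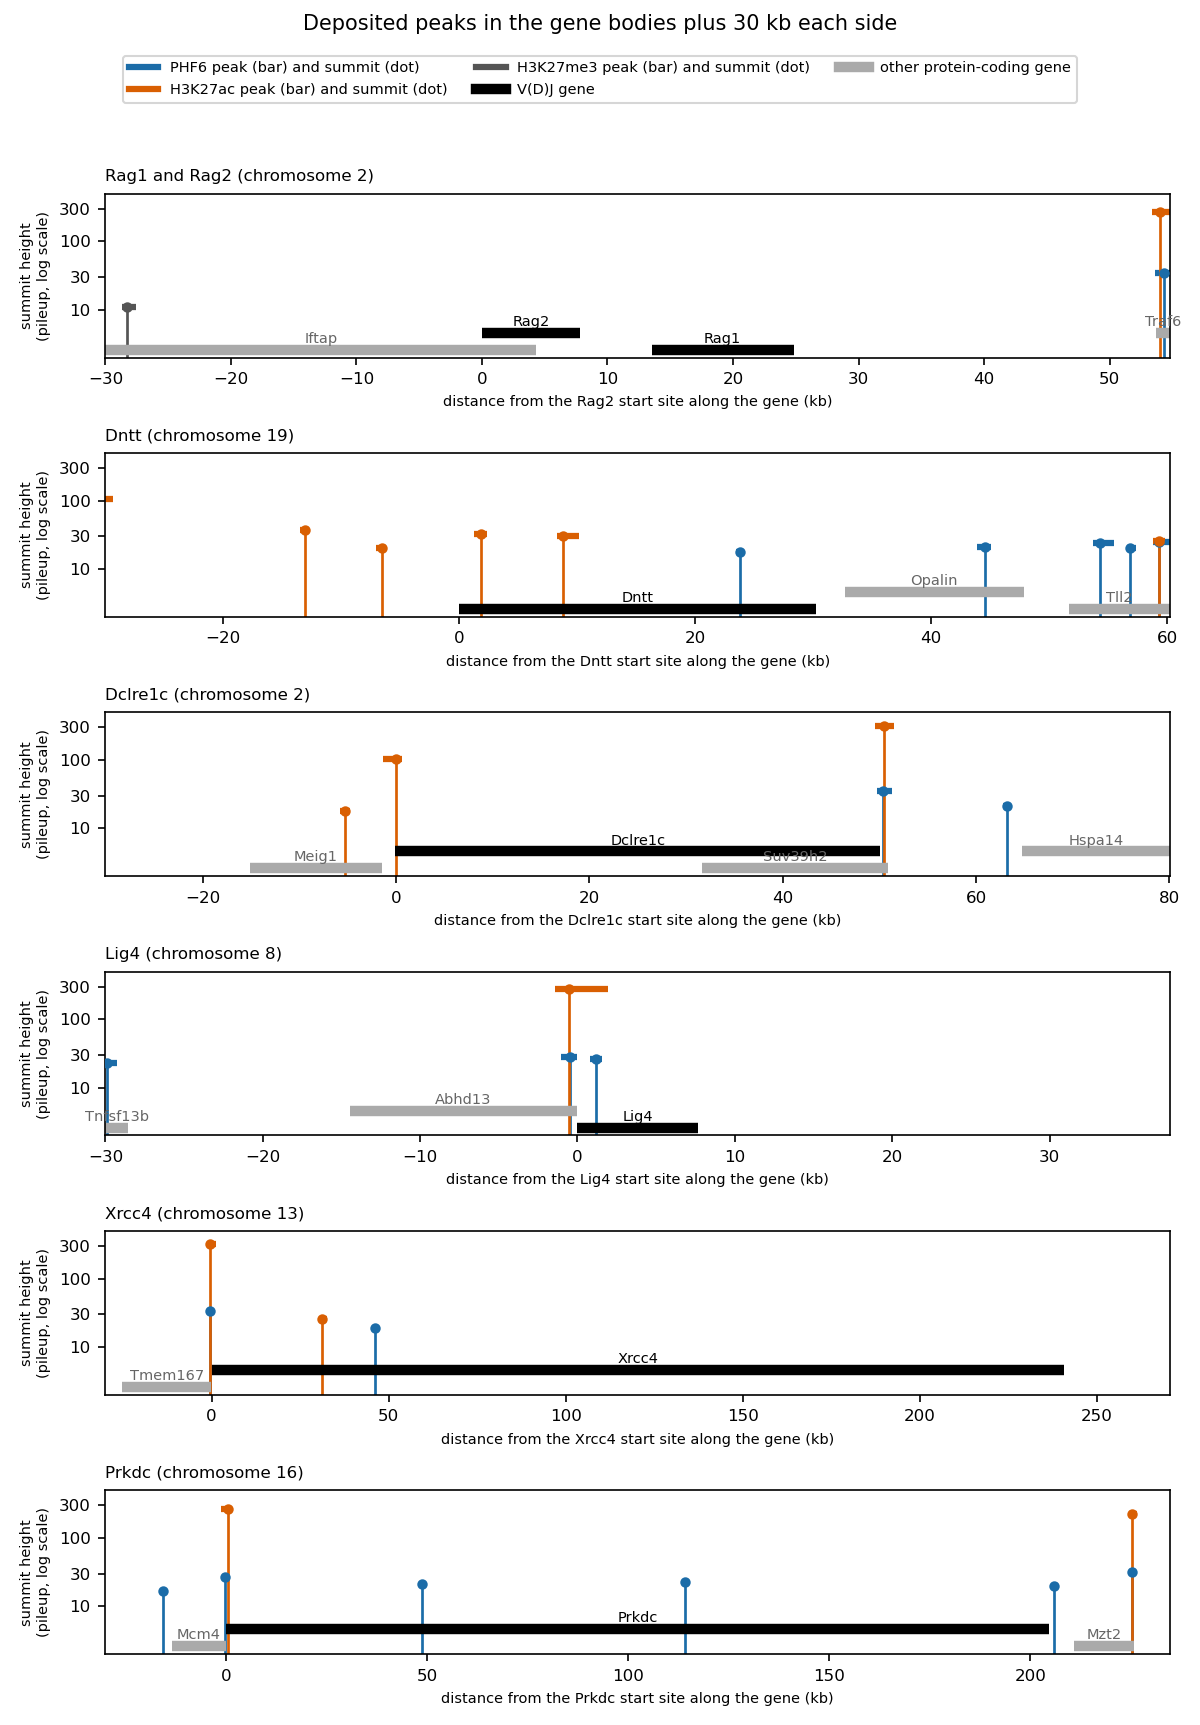
Called peaks of the 3 lists at each locus by distance from the start site (x axis, kb along the gene) and summit height (y axis, pileup, log scale), with bars for peak width, dots for summits and thick lines at the bottom for gene bodies. The *Rag1* and *Rag2* map is empty between the H3K27me3 peak of height 11 upstream of *Rag2* and the *Traf6* start, while *Lig4*, *Xrcc4* and *Prkdc* carry PHF6 and H3K27ac at their starts.

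Counted once where windows overlap, the 7 windows held 19 PHF6, 15 H3K27ac and 1 H3K27me3 peaks. A PHF6 peak was in 6 of 7 windows, beside 90.1% of all genes, and an H3K27ac peak in 6 of 7, beside 80.5%. The members had 0 to 6 PHF6 peaks per window (median 2) and 0 to 6 H3K27ac peaks (median 2), and all genes had medians of 5 and 2. Windows differed in length from 67.7 to 301 kb, so counts per window are not densities. Of the 15 H3K27ac peaks, 7 overlapped PHF6 (46.7%, 21.3 to 73.4), beside 71.7% of the whole list. Of the 19 PHF6 peaks, 8 overlapped H3K27ac (42.1%, 20.3 to 66.5), beside 30.3%. Both intervals are wide, and the second holds the value of the whole list while the first ends just above it.

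Within the windows, the PHF6 peaks that overlapped H3K27ac were taller than the others, while the heights of H3K27ac peaks with and without PHF6 overlapped. The 8 PHF6 peaks on H3K27ac had heights of 25 to 35 (median 30), and the 11 others had 17 to 24 (median 21), with no overlap between the groups. Heights were not split in this way over the whole PHF6 list, so the difference is not shown to be particular to these windows. The 7 H3K27ac peaks on PHF6 had a median height of 270 and ranged from 26 to 319. The 8 H3K27ac peaks without PHF6 ranged from 18 to 106, with a median of 31.5. Of these 8, 5 were in the *Dntt* window, 2 in that of *Dclre1c* and 1 in *Xrcc4*. None of the 19 PHF6 peaks overlapped H3K27me3 (upper limit 17.6%). The windows held only 1 H3K27me3 peak, so little overlap was possible, and the share over all PHF6 peaks was not computed.

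Of 20 other genes of end joining and of the break response, 14 could be placed. H3K27ac was at 13 of these starts (92.9%, 66.1 to 99.8), beside 62.3% of all genes, and PHF6 at 8 (57.1%, 28.9 to 82.3), beside 68.0%. Their median heights were 301 for H3K27ac and 37 for PHF6, beside 252 and 33 over all genes with such a peak. The tallest were at *Hmgb1* (PHF6 56, H3K27ac 364) and *Hmgb2* (PHF6 59, H3K27ac 345), genes of the DNA-bending proteins that assist RAG. Of the 13 acetylated genes 5 lacked PHF6, beside 9.28% of all acetylated genes, among them *Xrcc5*, the Ku80 gene, with an H3K27ac height of 88, whereas *Xrcc6*, the Ku70 gene, had heights of 47 for PHF6 and 319 for H3K27ac. *Nhej1*, the XLF gene, had neither at its start. H3K27me3 was at none of these 14 starts (upper limit 23.2%), nor at those of the next 2 lists (upper limits 30.8% and 23.2%), beside 3.53% of all genes. These intervals hold the value of all genes, so no difference from them is shown.

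Of 13 other DNA repair genes, mainly of ligases, polymerases, nucleases and homologous recombination, 10 could be placed. H3K27ac was at 10 starts (lower limit 69.2%), beside 62.3% of all genes, and PHF6 at 9 (90.0%, 55.5 to 99.7), beside 68.0%, the latter interval holding the value of all genes. *Dclre1b*, the Apollo nuclease gene, had the tallest PHF6 summit at 99 with an H3K27ac height of 249, while its relative *Dclre1c* had no PHF6. *Xrcc3*, of homologous recombination, had a PHF6 height of 44, and *Dclre1a* and *Lig3* had the tallest H3K27ac at 352 and 346.

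Of 16 genes of transcription factors that regulate *Rag* expression, 14 could be placed and 13 of these (92.9%, 66.1 to 99.8) had PHF6 and H3K27ac at the start, beside 56.5% of all genes. Their median heights were 48 for PHF6 and 343 for H3K27ac, beside 33 and 252 over all genes with such a peak. *Runx1* had the tallest PHF6 at 72, followed by *Tcf3*, the E2A gene, at 59. *Tcf3* and *Etv6* had the tallest H3K27ac at 373 and 364. *Foxo1* had 53 for PHF6 and 297 for H3K27ac. *Bach2* had neither at its start, although its window held a PHF6 height of 71 and an H3K27ac height of 353. *Foxo1* was chosen after its values were seen.

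**Figure D4:**
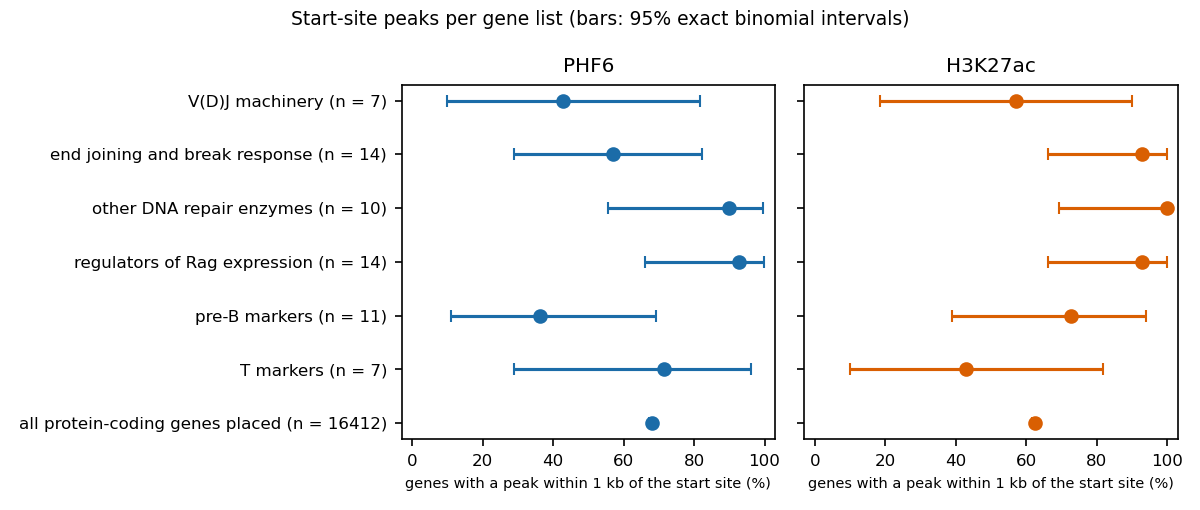
Share of genes with PHF6 (left) or H3K27ac (right) within 1 kb of the start site (x axis, percent) for each list and for all protein-coding genes placed in mm9 (y axis, n in brackets), with 95% exact binomial intervals for counting error. The interval of the V(D)J machinery holds the value of all genes in both panels, and the regulators of *Rag* stand at 92.9% in each.

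Among the genes near the members, 14 were listed and 13 could be placed. H3K27ac was at 11 starts (84.6%, 54.6 to 98.1), beside 62.3% of all genes, and PHF6 at 9 (69.2%, 38.6 to 90.9), beside 68.0%. Both intervals hold the value of all genes. The peaks at *Tmem167*, *Abhd13* and *Meig1* are the same as those counted at member starts. *Tmem167* and *Suv39h2*, described above, had the tallest H3K27ac at 319 and 316, and *Cdnf* and *Hspa14*, near *Dclre1c*, the tallest PHF6 at 37 each. *Tll2*, beyond *Dntt*, was the only neighbour with H3K27me3 at its start, with a height of 12. *Iftap*, described above, and *Opalin*, next to *Dntt*, had neither PHF6 nor H3K27ac at theirs.

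The labelled pre-B cell type was checked against marker genes. Of 14 pre-B markers 11 could be placed, and 8 of these had H3K27ac at the start site (72.7%, 39.0 to 94.0), beside 62.3% of all genes, which the interval holds. PHF6 was at 4 of the 11 (36.4%, 10.9 to 69.2), beside 68.0%, which this interval also holds. The 3 without H3K27ac were *Rag1*, *Rag2* and *Dntt*. *Pax5*, *Ebf1*, *Cd79a*, *Vpreb1*, *Vpreb2* and *Igll1* had heights of 283 to 329, and *Blnk* and *Il7r* had 106 and 35. H3K27ac was at 3 of 7 T-cell marker starts (heights of 15 to 118, with *Cd3e*, *Cd3d*, *Cd3g* and *Cd8a* without a peak), 0 of 5 myeloid, 1 of 5 erythroid (*Klf1*) and 0 of 4 non-blood marker starts. PHF6 was at 5 of 7 T-cell, 2 of 5 myeloid, 3 of 5 erythroid and 3 of 4 non-blood marker starts, beside 68.0% of all genes. The pre-B share of PHF6 was thus not above that of any of these lists. H3K27me3 was at the starts of the myeloid genes *Elane* and *Lyz2* and of *Hba-a1*, a haemoglobin gene, with heights of 11, 24 and 77.

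The genes on other chromosomes whose windows were most like those of the members were found from 4 values, the number of peaks and the tallest height for PHF6 and for H3K27ac. Their likeness is the sum of the 4 differences in percentile among all genes, over 2 libraries. *Xrcc4* was closest to *Abhd10* and *Tagln3* (sum 3.66) and *Abce1* (4.30), with a further gene, not named here, tied with *Abce1*. *Lig4* was closest to *Kdm4d* (3.75), *Herc2* (4.51) and *Ggact* (5.45). *Prkdc* was closest to *Ndufa8* (3.25), *Zfp180* (5.75) and *Got2* (5.88). *Dclre1c* was closest to *Osgepl1* (2.45), *Gas2* (5.15) and *Zfp426* (8.67), and *Dntt* to *Fbp1* (4.71), *Dad1* (5.97) and *Nr1i3* (10.04). Likeness is of windows and not of start sites. The tallest heights used for *Dclre1c* lay at the *Suv39h2* start. Those for *Dntt* lay at *Blnk* (H3K27ac) and in *Tll2* (PHF6), and the tallest PHF6 height for *Prkdc* in *Mzt2*. *Rag1* was closest to *Shld3* and *Trappc13* (1.08 each) and *Aknad1* (2.49), through the *Traf6* peaks at the edge of its window. *Rag2*, with no PHF6 or H3K27ac peak in its window, had the same 4 values as 1132 genes, so no closest gene is named.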

How the data were processed

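Peak lists from 1 library each of PHF6, H3K27ac and H3K27me3 ChIP were used. Bowtie2, SAMtools and MACS 1.4.0 with mm9 are named in the submitters' processing notes. The names of the deposited lists give a threshold of 1e-6, and for PHF6 and H3K27ac a setting without local background that is missing for H3K27me3. The deposited score of a peak is the authors' value, at least 60, used only as a filter. The deposited signal is the authors' pileup height at each summit. Depth is unknown.

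RefSeq gene positions (GRCm38.p6) were moved to mm9 with a piecewise constant offset along each chromosome, found from start sites and H3K27ac summits of height 200 or more within 3 Mb. At least 3 matches within 500 bp were required and, except for *Prkdc*, an entry in the promoter table. These conditions placed 16412 of 21896 protein-coding genes. Shares given for all genes are shares of the placed genes. The acetylated start sites of many genes set each offset, so placement is not independent of H3K27ac as a whole. Tested on simulated data for the members' 5 chromosomes, 7725 of 7748 start sites (99.7%) came within 500 bp of the planted position. The simulation put most summits at start sites, with the spread that the routine assumes. Its planted offsets did not reach that of *Rag1* and *Rag2*, 160003 bp. The share is thus a check of the routine and not the accuracy for the members. Of the 7 members, 6 were in the promoter table. No p-value was computed.

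All 7 members are named. From each list the text names the genes with the 2 tallest PHF6 and H3K27ac start-site summits, those with H3K27me3 and those with neither PHF6 nor H3K27ac, and others added for the account of the locus. *Xrcc5*, *Xrcc6* and *Foxo1* were added after their values were seen. The members and lists were chosen with earlier results of these data known. Computations used matplotlib 3.10.9, pandas 2.3.3, numpy 2.4.6 and scipy 1.17.1 under Python 3.11.15.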

Additional observations from a re-analysis of the deposited data

How the results depend on the processing

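Members with a start-site peak numbered 3 for PHF6, 4 for H3K27ac and 0 for H3K27me3 in every setting run, except 2 for PHF6 at a score of at least 100 and 5 for H3K27ac within 2 kb. The largest shift of a member's position was 30 bp without the start sites of its own window, a setting added after seeing the data. It was 70 bp with H3K27ac summits of height 100 or more, which placed all 7 members. It was 320 bp with start sites within 1 Mb, which placed 2 members, and 220 bp with the tallest PHF6 summits, which placed 5. Members without 3 matches kept their position. With 10 kb each side the windows held 10 PHF6 peaks (19 before) and 0 H3K27me3 peaks (1 before), and with 100 kb 31 and 5. At a score of at least 100, 10 PHF6 peaks remained. With 10 kb each side the tallest height at *Rag1* was 0 for PHF6 and 0 for H3K27ac (34 and 270 before), at *Dntt* 33 for H3K27ac (106 before) and at *Rag2* 0 for H3K27me3 (11 before). With 100 kb, *Rag2* reached *Traf6* (34 for PHF6 and 270 for H3K27ac), *Prkdc* had 319 for H3K27ac and 25 for H3K27me3, *Rag1* 11 and *Dclre1c* 32 for H3K27me3. The share of all genes with a start-site peak (68.0% PHF6, 62.3% H3K27ac, 3.53% H3K27me3) was 66.7%, 61.3% and 2.72% within 500 bp, and 69.7%, 63.4% and 4.81% within 2 kb. It was 68.8% for PHF6 and 63.2% for H3K27ac among the 15226 genes whose offset matched both neighbours. The other 83 values stayed within their interval or within 1.5 times the count. Fewer or more peaks in another window follow from its size. No paired analysis was possible because there was 1 library per antibody. Unknown depth limits every statement that no peak was called.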
